A study of Mus musculus with 4 samples.

Results

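Glycolysis and hypoxia response genes were followed in mouse bone marrow cells on 4 Affymetrix arrays. The set holds 40 genes chosen by name for the transport and breakdown of glucose, the handling of pyruvate and lactate, and the response to low oxygen. A gene counted as measured where at least 1 probe set, the unit of the array that reads a transcript, carried that gene's symbol and no other, and the brightest such probe set over the 4 arrays stood for it. This left 36 of the 40 members, among 19938 genes measured in all. Gapdh, Gpi1, Eno1 and Pfkfb1 had no probe set of their symbol alone and were not analysed here.

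The cells, called KLS, had been sorted as Lin- c-Kit+ Sca-1+, which selects stem cells and early progenitors of the blood. By their labels 2 arrays held Klf7-/- cells and 2 held Klf7+/+ cells, called knockout 1 and 2 and wild type 1 and 2. All 4 were labelled C57Bl/6 and came from bone marrow of chimeric mice that had been made with fetal liver cells, whose marrow held cells of both genotypes. The Klf7 allele, the age of the mice and the number of mice or donor embryos per array are not given in the sources used here. The p-values thus measure only the spread between these arrays, which may be technical.

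Glycolysis splits glucose into pyruvate in the cytosol and yields ATP without oxygen. Under low oxygen the hypoxia-inducible factors (HIFs), dimers of an oxygen-regulated alpha subunit and the stable partner encoded by Arnt, switch on genes of glucose uptake, glycolysis and lactate export. Prolyl hydroxylases of the Egln family mark the alpha subunits for destruction through the VHL protein when oxygen is present. Hematopoietic stem cells are known for relying on glycolysis, and their pyruvate dehydrogenase kinases hold pyruvate back from the mitochondria.

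Sex-linked transcripts split the arrays along genotype. Xist, the RNA of the inactive X chromosome, read 11.76 and 11.58 (log2 intensity) in knockout and 5.24 and 4.80 in wild type, and the Y-linked genes Eif2s3y, Uty and Kdm5d lay the other way without overlap. Genotype and these transcripts therefore cannot be told apart in any difference below. Of the sort antigens, Kit read between 9.55 and 10.12 on all arrays, and Ly6a, the Sca-1 gene, was not analysed here. The summed intensity of 8 measured stem and progenitor markers was 4020.3 and 3943.5 in knockout against 3089.4 and 2874.6 in wild type. This sum, in which bright genes weigh most, thus separated the genotypes too. Cd34, Flt3, Kit, Hlf and Slamf1 were higher and Mecom lower in knockout without overlap. For Mecom this held for the brighter probe set, at -0.71, while its other probe set stood at 0.54. These were 6 of the 8 markers, where 33.2% of all genes had no overlap. Gata2 and Procr overlapped, at -0.20 and 0.01, and Slamf1 was dim, with a mean of 4.41 and a difference of 0.08. In bulk cells, fewer cells of a type and less RNA per cell cannot be told apart. The summed granulocyte markers ran from 2105.2 to 4015.3 in knockout around the 2837.2 and 3082 of wild type. Of the 8 granulocyte markers Elane alone had no overlap, at -1.07. The erythroid, B cell, T cell and megakaryocyte sums also overlapped, although single markers in them did not. Of the 5 T cell markers 3 had no overlap, in both directions, with Lat at 0.62, Thy1 at -0.48 and Cd3e at -0.10. Without overlap and higher in knockout were 2 of 6 erythroid markers, Slc4a1 at 0.28 and Alas2 at 0.25. So were 1 of 4 B cell markers, Ebf1 at 0.35, and 1 of 3 megakaryocyte markers, Itga2b at 0.14. Both monocyte sums of wild type (431 and 453.2) lay above those of knockout (406.8 and 402.7). The B cell sum was 476.9 in knockout 1 against 125.6 to 136.4 on the other arrays. The part of these sums in the members' values was not tested. Klf7 itself read 6.59 and 6.18 in knockout against 5.95 and 6.10 in wild type. It was not lower in knockout, and whether its probe set lies in the deleted part is not known here.

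No member passed the test between genotypes. In limma's moderated test over all 28939 probe sets, with Benjamini-Hochberg adjustment and a threshold of 0.05, 0 of 36 members were called, where 0.00346% of all probe sets were. The smallest adjusted p among the members was 0.945, and 1 of 36, Arnt, had an unadjusted p under 0.05, against 5.01% of all probe sets. In all, 16 stood higher and 20 lower in knockout, and their median difference was -0.03 (log2, knockout minus wild type), beside -0.03 over all genes.

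In 10 of the 36 (27.8%) the arrays of the genotypes did not overlap, against 33.2% of all genes. Slc16a1, Ldhb, Arnt, Pgk1, Pgam1 and Pgam2 were the 6 higher in knockout (14.5% of all genes), and Egln3, Pfkp, Pdk4 and Tpi1 the 4 lower (18.6% of all genes). Only Egln3 lay at least 2-fold apart, 1 of 36 where 1.46% of all genes did. The counts of members thus lay near those of all genes. With 1 array left out, overlap is easier to avoid, and 19 to 25 members were without it where 64.1% to 69.6% of all genes were: 24 without knockout 1, 19 without knockout 2, 25 without wild type 1 and 24 without wild type 2.

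Arrays of the same genotype often lay farther apart than the genotypes did. In 33 of 36 members the gap between the arrays of a genotype, in knockout or in wild type, exceeded the difference between genotypes, as it did in 78.5% of all genes. The 3 exceptions were Arnt, Tpi1 and Pgk1. Between wild type 1 and wild type 2, 5 members were at least 2-fold apart, namely Pfkl, Egln3, Aldoc, Hif1a and Slc16a1 (13.9%, against 4.56% of all genes). Between the knockout arrays there were 2, Hk3 and Pdk3 (5.56%, against 3.52%). With each array left out in turn, 25 of the 36 differences changed sign and 9 kept their sign but moved by over 1.5 times, and Tpi1 and Arnt did neither. The 10 members without overlap keep their sign by construction. All 25 sign changes thus fell among the 26 with overlap and largely restate that count. The share of all genes that changed sign was not computed. The median gap between arrays ran from 0.20 to 0.31 (log2) for the members over the 6 pairs of arrays and from 0.21 to 0.24 for all genes.

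**Figure D1:**
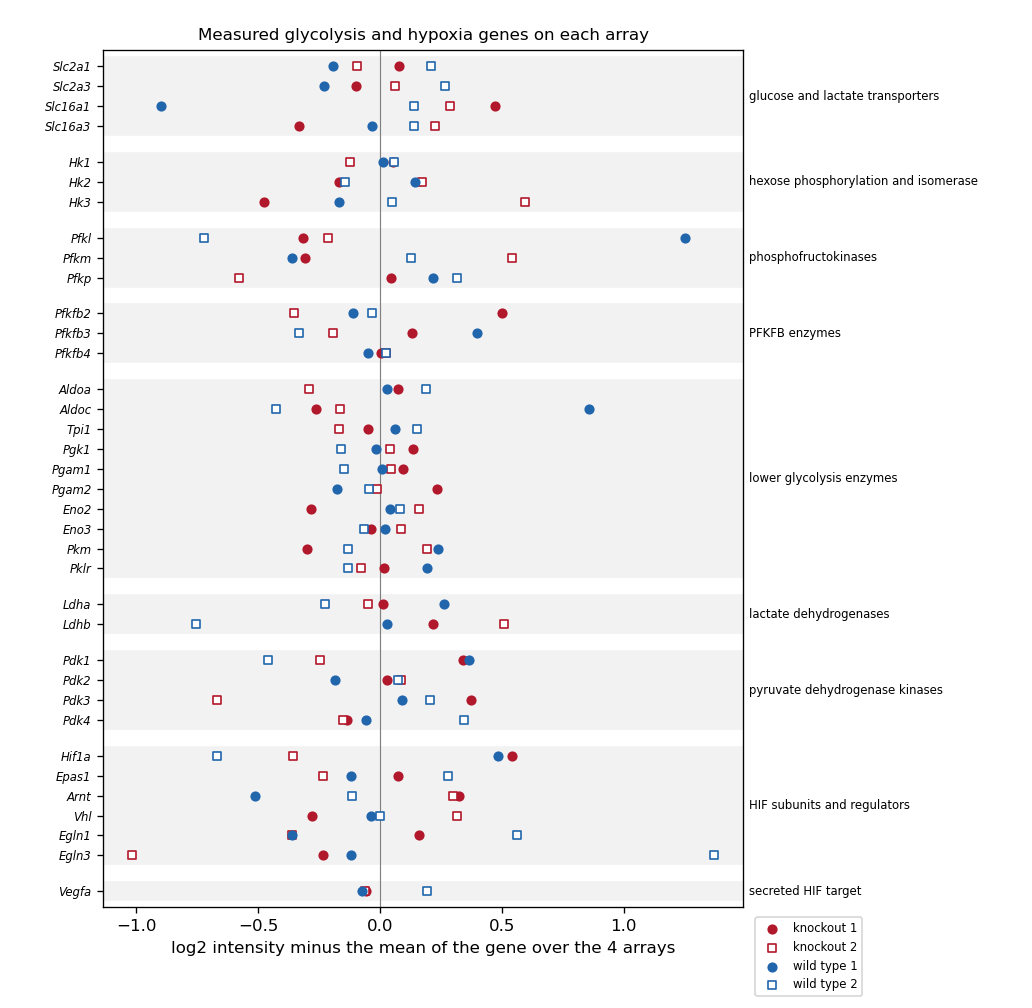
Log2 intensity of each of the 36 measured members on each array, as the distance from that gene's mean over the 4 arrays, grouped by role. Red marks are knockout and blue marks wild type, with filled circles for replicate 1 and open squares for replicate 2. Red and blue marks are apart in 10 members and overlap in the others. Of the widest spreads, that of Pfkl lies between the arrays of wild type, and that of Egln3 runs from knockout 2 to wild type 2.

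**Figure D2:**
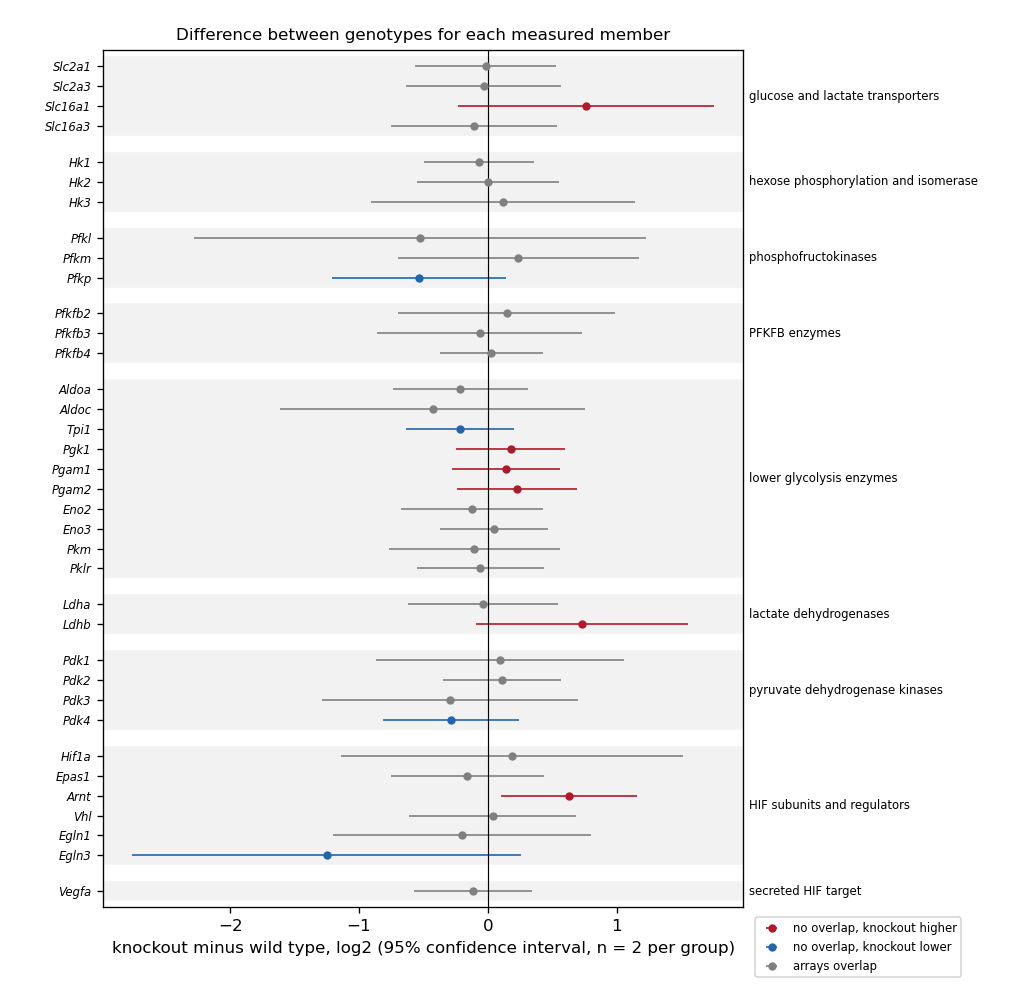
Difference between knockout and wild type (log2) for each measured member, with its 95% confidence interval from limma and 2 arrays per group. Colored members had no overlap between the genotypes. Only the unadjusted interval of Arnt leaves out 0.

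The sequence before the start of 5 genes is shown, for the 4 members with the largest differences among those without overlap, and for Ldha, a textbook HIF target whose genotypes overlapped. Each is the 250 bases before a start in RefSeq (GRCm38.p6), 5′ to 3′ on the strand of the gene. Capitals mark ACGTG, the core of the HIF binding site, on either strand. CCCACCC, a longer form of the CACCC box bound by KLF proteins, was searched on either strand too and is in none of the 5. The shorter CACCC was not searched by itself, and it does occur among the 5.
Egln3, chr12:54203875-54204124, - strand: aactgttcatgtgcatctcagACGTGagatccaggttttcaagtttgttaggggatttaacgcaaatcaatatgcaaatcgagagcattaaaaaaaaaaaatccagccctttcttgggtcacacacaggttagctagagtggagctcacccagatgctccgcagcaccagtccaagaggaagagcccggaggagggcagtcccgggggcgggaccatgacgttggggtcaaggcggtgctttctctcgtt
Slc16a1, chr3:104638414-104638663, + strand: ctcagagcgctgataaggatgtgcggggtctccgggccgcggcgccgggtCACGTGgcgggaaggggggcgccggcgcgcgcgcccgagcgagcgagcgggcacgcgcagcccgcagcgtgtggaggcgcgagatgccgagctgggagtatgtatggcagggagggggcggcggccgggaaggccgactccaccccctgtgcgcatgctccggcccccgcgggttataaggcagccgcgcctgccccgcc
Arnt, chr3:95434140-95434389, + strand: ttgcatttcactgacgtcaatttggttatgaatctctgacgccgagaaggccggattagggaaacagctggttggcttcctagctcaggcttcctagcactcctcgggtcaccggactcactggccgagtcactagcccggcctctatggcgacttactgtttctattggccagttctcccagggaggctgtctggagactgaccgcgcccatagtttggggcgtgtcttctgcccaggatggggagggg
Ldhb, chr6:142507958-142508207, - strand: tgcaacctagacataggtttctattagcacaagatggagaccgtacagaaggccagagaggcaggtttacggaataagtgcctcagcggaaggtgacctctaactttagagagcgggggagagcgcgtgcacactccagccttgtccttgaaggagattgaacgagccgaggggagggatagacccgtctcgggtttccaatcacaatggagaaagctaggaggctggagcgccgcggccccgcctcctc
Ldha, chr7:46845554-46845803, + strand: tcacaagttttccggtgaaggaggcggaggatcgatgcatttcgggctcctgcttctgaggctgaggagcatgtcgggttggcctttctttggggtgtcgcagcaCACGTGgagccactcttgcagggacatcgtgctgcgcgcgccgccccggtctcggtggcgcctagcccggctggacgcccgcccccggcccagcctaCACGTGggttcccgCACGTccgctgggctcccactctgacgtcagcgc

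The match in Egln3 lies 229 bases before the start. Slc16a1 holds CACGTG, which reads as ACGTG on both strands, 200 bases before it. In the Ldha window shown, CACGTG lies at 145 and 48 bases and a further match at 34 bases. Ldha has a second RefSeq start, and its window (chr7:46846832-46847081) holds 0 matches, while the other 4 genes shown have 1 window each. No ACGTG was found in these windows of Arnt and Ldhb. Other forms of the core, such as GCGTG, were not searched, and GCGTG occurs in both. RefSeq starts were found for 34 of the 36 measured members, with 50 windows in all since some genes have several starts. ACGTG was in 23 of the 50 windows (46%) and in 16.6% of all 32851 windows of this length, and 19 of the 34 members had it in at least 1. CCCACCC was in 20% of the members' windows and 15.8% of all. Windows of a gene can overlap, base composition was not allowed for, and a match is a run of letters and not a binding site. Members with a match lay on either side of 0, among them Egln3 at -1.25, Ldha at -0.03 and Slc16a1 at 0.76.

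Among the transporters, the lactate carrier gene Slc16a1 had the largest difference and the only one without overlap. Slc16a1 encodes the monocarboxylate transporter that moves lactate and pyruvate with a proton, and it read 6.41 and 6.22 in knockout against 5.04 and 6.07 in wild type. Wild type 1 was low, while wild type 2 lay close under the knockout arrays. This made 0.76 ± 0.38 (SE, n = 2 per group), in a 95% confidence interval from -0.23 to 1.75, with a limma adjusted p of 0.949, and it was 0.24 without wild type 1. Slc16a3, which encodes the carrier known for lactate export, differed by -0.11 ± 0.24 around a mean of 6.45. The glucose transporter genes Slc2a1 and Slc2a3, which encode GLUT1 and GLUT3, differed by -0.02 ± 0.21 and -0.03 ± 0.23. In each of these 3 the genotypes overlapped, and the intervals reach from -0.75 to 0.57 at their widest.

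The hexokinases, which trap glucose in the cell as glucose 6-phosphate, overlapped throughout. Hk3, the myeloid form, read 6.18 and 7.25 in knockout against 6.49 and 6.70 in wild type, so that the knockout arrays enclosed those of wild type, and its difference was 0.12 ± 0.39. Hk2, the inducible form, stood at 0.00 ± 0.21, with an interval from -0.55 to 0.55. For Hk1, the broadly expressed form, the probe set used differed by -0.07 ± 0.16 and the other by 0.04 ± 0.23. IDs of this array run by chromosome: for 96.8% of probe sets the 20 neighbouring IDs belong mostly to the gene's own chromosome. The Hk1 probe set used lies among IDs of chromosome 14, although Hk1 is on chromosome 10, where the dimmer probe set belongs, so which transcript the brighter reading of 11.42 belongs to is uncertain. The same held for Pgk1 among the members, and for the other 34 the probe set used sat among IDs of its own chromosome.

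Of the phosphofructokinase subunits, which form the committed step of glycolysis, Pfkp alone had no overlap. Pfkp, the platelet type, read 5.76 and 5.14 in knockout against 5.94 and 6.03 in wild type. Knockout 2 was the low array. The difference was -0.53 ± 0.26, with an interval from -1.21 to 0.14 and a limma adjusted p of 0.947, and it was -0.22 without knockout 2. Pfkl, the liver type, had a difference of the same size, -0.53 ± 0.67, from other arrays: it read 5.77 and 5.87 in knockout against 7.34 and 5.36 in wild type. Wild type 1 alone was high and wild type 2 was the lowest of the 4, so without wild type 1 the difference was 0.46. Pfkm, the muscle type, differed by 0.24 ± 0.36 with overlap.

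The PFKFB enzymes make and break fructose 2,6-bisphosphate, the activator of phosphofructokinase. Pfkfb2 read 6.92 and 6.07 in knockout against 6.31 and 6.39 in wild type, with the knockout arrays on either side of those of wild type, a difference of 0.15 ± 0.32. Pfkfb3, known as a hypoxia-induced form, differed by -0.06 ± 0.30 around a mean of 6.66. Pfkfb4 was the steadiest of the members measured here across arrays, between 4.56 and 4.64, and differed by 0.03 ± 0.15.

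The enzymes from aldolase to pyruvate kinase showed small differences of both signs. Of 10 measured, 4 stood higher and 6 lower in knockout, none passed the test, and the differences ran from -0.43 to 0.22. Tpi1, triosephosphate isomerase, read 8.12 and 8.01 in knockout against 8.23 and 8.33 in wild type, for a difference of -0.22 ± 0.16 without overlap. Pgk1, phosphoglycerate kinase, an ATP-forming enzyme, read 9.62 and 9.53 in knockout against 9.47 and 9.33 in wild type. The genotypes were apart by a small step, 0.18 ± 0.16, which was 0.11 without wild type 2. Pgk1 is X-linked, and X-linked transcripts cannot be set apart from genotype here. The probe set used lies among IDs of chromosome 12 and gave the same 4 values as another among IDs of chromosome 3, while the probe set among X chromosome IDs read 9.44 and 9.29 in knockout against 9.27 and 9.11 in wild type, for a difference of 0.17 ± 0.17. These probe sets may read near-identical copies of the gene and are not independent readings.

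Phosphoglycerate mutase had both its genes higher in knockout without overlap. Pgam1, the broadly expressed form, read 7.38 and 7.33 in knockout against 7.29 and 7.13 in wild type, for a difference of 0.14 ± 0.16 that was 0.062 without wild type 2. Its gap to the nearest wild-type array was smaller than the spread within wild type. A second Pgam1 probe set, among IDs of chromosome 7, gave the same values and is not an independent reading. Another, among IDs of chromosome 3, gave 0.50 ± 0.45 with overlap, while Pgam1 is on chromosome 19. Pgam2, the muscle form, read 6.07 and 5.83 in knockout against 5.66 and 5.80 in wild type, for a difference of 0.22 ± 0.18. Knockout 2 and wild type 2 almost met, and the difference was 0.099 without knockout 1 and 0.35 without knockout 2.

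Aldoc, a brain-type aldolase, had the largest difference of this stretch of the pathway, with overlap. It read 5.70 and 5.80 in knockout against 6.82 and 5.53 in wild type, for a difference of -0.43 ± 0.45. As in Pfkl, wild type 1 alone was high, and without it the difference was 0.21. Aldoa, the main aldolase of most tissues, differed by -0.21 ± 0.20 around a mean of 8.33, with overlap, and stood at -0.032 without knockout 2. The enolase genes Eno2 and Eno3 differed by -0.12 ± 0.21 and 0.05 ± 0.16.

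Pkm, which encodes pyruvate kinase M, read 7.76 and 8.26 in knockout against 8.30 and 7.93 in wild type, for a difference of -0.11 ± 0.25 with overlap. Its other probe set, which lies among IDs of chromosome 5 while Pkm is on chromosome 9, read 7.77 and 7.43 in knockout against 8.10 and 8.38 in wild type, and differed by -0.64 ± 0.21 without overlap. The Pkm result therefore depended on the probe set, and the mean of the pair differed by -0.38. Pklr, the liver and red cell pyruvate kinase, differed by -0.06 ± 0.19.

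Lactate dehydrogenase turns pyruvate into lactate and back, and of its subunit genes Ldhb had no overlap between genotypes while Ldha did. Ldhb, the heart-type subunit, read 7.08 and 7.37 in knockout against 6.89 and 6.11 in wild type. Wild type 2 was low and wild type 1 lay just under the knockout arrays. The difference of 0.73 ± 0.31 had a 95% confidence interval from -0.10 to 1.56 and a limma adjusted p of 0.945, and it stood at 0.34 without wild type 2 and 1.12 without wild type 1. A second Ldhb probe set, among IDs of another chromosome, gave 0.44 ± 0.27, also without overlap. Ldha, the hypoxia-induced subunit, read 7.81 and 7.75 in knockout against 8.06 and 7.57 in wild type. The wild-type arrays enclosed those of knockout, and the difference was -0.03 ± 0.22. Whether the difference of Ldhb exceeded that of Ldha was not tested.

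Pyruvate dehydrogenase kinases switch off the enzyme that feeds pyruvate to the mitochondria, and of the 4 genes Pdk4 had no overlap. Pdk4, known as the fasting-induced form, read 4.54 and 4.53 in knockout against 4.62 and 5.02 in wild type. Most of its difference of -0.29 ± 0.20 came from wild type 2, and without that array it was -0.09. Pdk4 was dim, with a mean of 4.68 where the median gene level was 5.77. Its difference came down to -0.13 at the least under the settings that keep all arrays. Pdk3, which is X-linked, read 7.72 and 6.68 in knockout against 7.44 and 7.55 in wild type, with knockout 2 low, and differed by -0.30 ± 0.38. Pdk1, the hypoxia-induced form, read 6.89 and 6.31 in knockout against 6.92 and 6.09 in wild type, for a difference of 0.09 ± 0.36. In both genotypes replicate 1 was the higher array. Pdk2 differed by 0.11 ± 0.17.

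In the HIF system, Arnt had the smallest p-value and Egln3 the largest difference of all 36 members. Arnt, the common HIF partner, read 7.19 and 7.16 in knockout against 6.35 and 6.75 in wild type. Both knockout arrays lay together above both wild-type arrays. They differed by 0.63 ± 0.20 (SE, n = 2), in a 95% confidence interval from 0.10 to 1.15, a 1.54-fold higher level in knockout. Its limma adjusted p was 0.945, short of the threshold. The value was 0.43 without wild type 1 and 0.83 without wild type 2, and 0.49 with an offset of 32 added to the intensities.

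Egln3, a prolyl hydroxylase gene that HIF itself induces, read 6.47 and 5.69 in knockout against 6.59 and 8.08 in wild type. Wild type 2 was far above the rest and wild type 1 lay close over knockout 1. The genotypes differed by -1.25 ± 0.57, in a 95% confidence interval from -2.76 to 0.26, a 2.38-fold lower level in knockout, with a limma adjusted p of 0.946. Without wild type 2 the difference was -0.51, and without wild type 1 it was -2.00. Egln1, the main oxygen-sensing hydroxylase, was also highest in wild type 2, at 7.18, against 6.26 in wild type 1 and 6.78 and 6.26 in knockout, and differed by -0.20 ± 0.38 with overlap.

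The HIF alpha subunit genes overlapped between genotypes. Hif1a read 7.59 and 6.69 in knockout against 7.53 and 6.38 in wild type. In both genotypes replicate 1 was the higher array, as for Pdk1, and the difference was 0.18 ± 0.50. Epas1, which encodes HIF-2 alpha, differed by -0.16 ± 0.22 and Vhl by 0.04 ± 0.25. The target gene Vegfa, an angiogenic growth factor, read 6.67 and 6.67 in knockout against 6.65 and 6.92 in wild type, for a difference of -0.12 ± 0.17 with overlap.

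**Figure D3:**
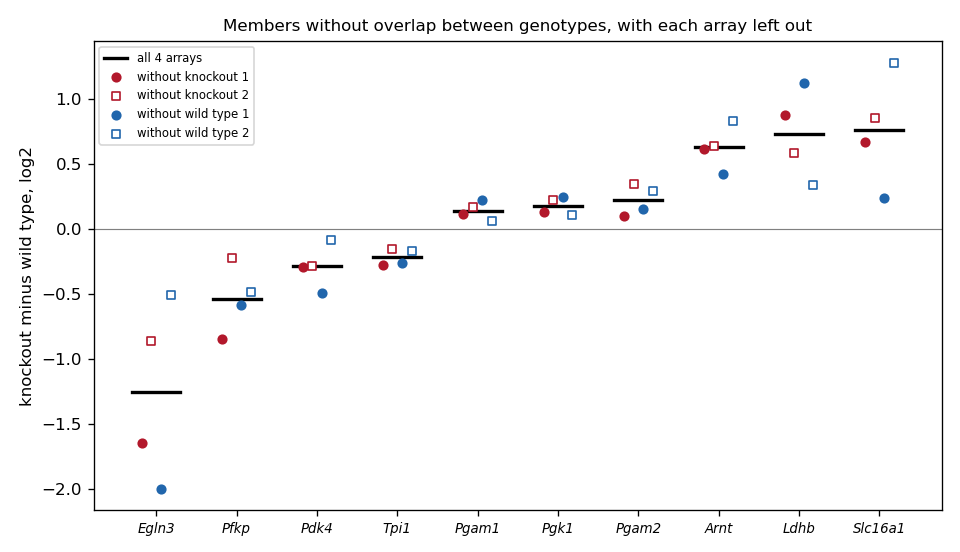
Difference between knockout and wild type (log2) for the 10 members without overlap, with all 4 arrays (black bar) and with each array left out (marks). Members that do not overlap keep their sign by construction, so only the size is informative. Egln3 runs from -2.00 to -0.51, Slc16a1 from 0.24 to 1.28 and Ldhb from 0.34 to 1.12. On a smaller scale Pgk1 runs from 0.11 to 0.25 and Pgam1 from 0.062 to 0.22, and only Arnt and Tpi1 stay within 1.5 times of their bars.

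Other genes of the same pathways, listed by function, gave no call either: 0 of 73 measured passed in limma, where 0.00346% of all probe sets did. The unadjusted limma p was under 0.05 for 2 of the 73, Wsb1 and Taldo1, against 5.01% of all probe sets. Of 25 other hypoxia-induced genes, 10 stood higher and 15 lower in knockout, with a median difference of -0.04. Bnip3l, a mitophagy receptor gene, read 8.25 and 7.37 in knockout against 8.49 and 9.32 in wild type, for a difference of -1.10 ± 0.43. Wild type 2 was highest, as for Egln3. The probe set used lies among IDs of another chromosome, and the probe set among those of its own gave -0.47 ± 0.26. Wsb1, a ubiquitin ligase subunit gene, read 8.61 and 8.59 in knockout against 9.15 and 9.38 in wild type, for a difference of -0.66 ± 0.17 with a limma adjusted p of 0.945. Its arrays lay close within each genotype.

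Of 14 other HIF pathway regulators 10 stood higher in knockout, with a median of 0.05 that ran from -0.0096 without knockout 2 to 0.13 without wild type 1. The largest differences above the median gene level were those of Cul2, the cullin of the VHL ligase, at 0.38 ± 0.19, and Meis1, a homeobox factor gene of stem cells, at 0.29 ± 0.21. The most common chromosome among the neighbouring IDs of the Cul2 probe set, with 40% of them, is not that of Cul2, and its difference was 0.24 without wild type 2. Of 13 other glycolysis and transport isoforms 8 stood higher, with a median of 0.07. Bsg encodes basigin, the chaperone of the lactate carriers, and read 7.43 and 7.84 in knockout against 7.17 and 7.14 in wild type. Its difference was 0.48 ± 0.20 without overlap, and 0.28 without knockout 2. Pgm2, a phosphoglucomutase gene, differed by -0.38 ± 0.30.

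Of the pentose phosphate pathway, which branches off glucose 6-phosphate, 6 genes were measured, and G6pdx was not. Their median was 0.14, and it was 0.03 without wild type 2 and 0.52 without wild type 1. All 6 lay above 0, some of them barely. Close to 0 were Tkt at 0.002 ± 0.45, Pgls at 0.008 ± 0.29 and Rpia at 0.03 ± 0.16. The genotypes overlapped in 4 of the 6, namely these and Rpe at 0.24 ± 0.30. Taldo1, transaldolase, held the largest difference of any related gene, and read 7.77 and 6.82 in knockout against 6.01 and 5.83 in wild type. Both knockout arrays lay above both wild-type arrays, knockout 1 farthest. The difference was 1.38 ± 0.35, a 2.6-fold higher level in knockout, with a limma adjusted p of 0.945 and 0.90 without knockout 1. Pgd, phosphogluconate dehydrogenase, read 6.89 and 6.73 in knockout against 6.41 and 6.39 in wild type, for a difference of 0.40 ± 0.16.

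Genes of pyruvate entry to the mitochondria had a median of 0.02 over 8, with Dld, a shared dehydrogenase subunit gene, at 0.52 ± 0.22 and the phosphatase gene Pdp1 at -0.49 ± 0.34. Gluconeogenesis had a median of 0.01 over 7, with G6pc3 at 0.61 ± 0.38 and Pck2 at 0.13 ± 0.23. Single arrays moved several of these: Pdp1 stood at -0.04 without wild type 2, G6pc3 at 0.14 without wild type 2 and Meis1 at 0.07 without wild type 2.

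**Figure D4:**
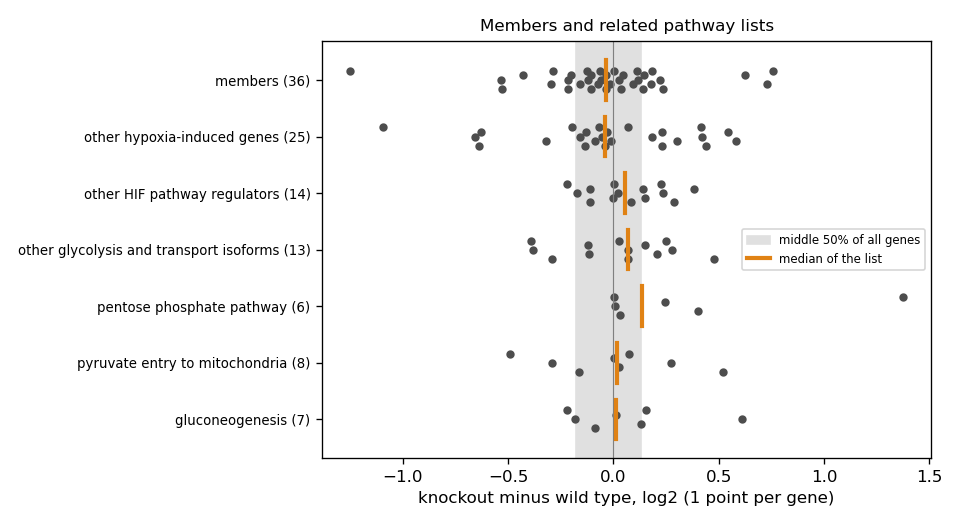
Difference between knockout and wild type (log2) of each measured gene, 1 point per gene, for the 36 members and 6 related lists, with list sizes in brackets. Orange bars are list medians and the gray band holds the middle 50% of all genes, from -0.18 to 0.13. List medians lie between -0.04 and 0.14, and no gene shown passed the test.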

How the data were processed

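Per the labels' protocols, RNA of the sorted cells was amplified by the NuGen Ovation System, with biotin as label. The deposited table holds 1 intensity for each probe set on each array. Per the submitters' processing notes, the authors used RMA and Affymetrix Expression Console, with no version or setting named. The values tested reach 17720.8, so the deposited intensity values were read as linear and log2 was taken. Array medians lay between 51.01 and 52.26, and no further normalization was applied. The 6615 leading probe sets, assumed to be controls, were left out of 35554. The platform annotation, dated 2016, gave 1 symbol for 21789 of the 28939 tested, several for 1621 and none for 5529. Current names and chromosomes were taken from RefSeq (GRCm38.p6), where 21698 were found.

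Genotypes were compared by limma 3.58.1 in R 4.3.3 through lmFit and eBayes, two-sided, with 2 residual degrees of freedom and Benjamini-Hochberg adjustment over all probe sets, and SE is the moderated standard error. Values on every array are given for members without overlap and for the member of each role with the largest absolute difference above the median gene level of 5.77. Pkm, Ldha, Pdk1, Egln1 and Hif1a are given on every array too, by a choice made after their values were seen. Of each related list up to 2 such genes are named. Members and lists were chosen with earlier results of these data known. The fit was tested on simulated data. Detection calls were not used, and the number of arrays limits the precision. The alternatives tried were probe sets above the median level only, cyclic loess, quantile normalization again, an offset of 32, an intensity trend with robust variance, the replicate block, the mean of a gene's probe sets and each array left out.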

Additional observations from a re-analysis of the deposited data

How the results depend on the processing

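The use of probe sets among IDs of the gene's own chromosome and the removal of X-linked genes are settings added once the data had been seen. No member passed the limma threshold under any alternative. The replicate number as a block gave 0 members past the threshold, with a smallest limma adjusted p of 0.881, and changed no member's call. The block fit has fewer than the 2 residual degrees of freedom of the main fit, so it cannot decide whether pairing matters. Over all probe sets, the 1 call of the unblocked fit, Xist at an adjusted p of 0.0454, was lost with the block, which left 0, as did quantile normalization, the offset, the intensity trend with robust variance, the removal of X-linked genes, Xist among them, and each array left out. Deviations of same-numbered arrays from their group means correlated at r = 0.0288 across genes, which are not independent replicates. The labels do not say whether same-numbered arrays were paired. The number without overlap was 10 of 36 as reported, where 33.2% of all genes had no overlap. Among the settings that keep all arrays it was lowest at 9 of 29 with the level filter (32.8% of all genes). Without X-linked genes it was 9 of 34 (33.1%). It was highest at 14 of 36 with quantile normalization again (33.5%). With an array left out it was 19 to 25 of 36, where 64.1% to 69.6% of all genes had no overlap. The number with an unadjusted p under 0.05 was 1, then 2 with a gene's probe sets averaged and 0 to 4 with an array left out.

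With an array left out, the members' median ran from -0.085 to 0.015, that of other hypoxia-induced genes from -0.068 to 0.041, of other HIF pathway regulators from -0.0096 to 0.13, of other glycolysis isoforms from -0.061 to 0.15, of the pentose phosphate pathway from 0.028 to 0.52, of pyruvate entry from -0.13 to 0.089 and of gluconeogenesis from -0.059 to 0.22. The last stood at 0.37 with probe sets above the median level only, which leaves 2 of its genes.

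Of 614 values of single genes, 577 kept their direction and 37 changed sign, and none gained a call. Hk1 turned to 0.042 on its own chromosome's probe set. The other 36 changes of sign came with an array left out, and their cause was not tested. Among transporters and upper glycolysis, the ranges were -0.22 to 0.18 for Slc2a1, -0.28 to 0.21 for Slc2a3, -0.39 to 0.17 for Slc16a3, -0.16 to 0.015 for Hk1, -0.17 to 0.17 for Hk2, -0.42 to 0.65 for Hk3, -1.52 to 0.46 for Pfkl, -0.19 to 0.66 for Pfkm, -0.28 to 0.57 for Pfkfb2, -0.43 to 0.30 for Pfkfb3 and -0.011 to 0.064 for Pfkfb4. Among lower enzymes they were -1.07 to 0.21 for Aldoc, -0.34 to 0.10 for Eno2, -0.016 to 0.11 for Eno3, -0.35 to 0.14 for Pkm, -0.22 to 0.10 for Pklr and -0.28 to 0.21 for Ldha. Among kinases and HIF genes they were -0.32 to 0.51 for Pdk1, -0.020 to 0.24 for Pdk2, -0.82 to 0.23 for Pdk3, -0.39 to 0.76 for Hif1a, -0.36 to 0.041 for Epas1, -0.26 to 0.33 for Vhl, -0.66 to 0.26 for Egln1 and -0.25 to 0.015 for Vegfa. Pgm2 ran from -0.77 to 0.0079 and Pck2 from -0.11 to 0.38. Signal over background was not used, so the dim end was probed by the offset and the level filter alone.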
